A study of Mus musculus with 2 samples.

Results

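The genes described here are 38 interferon-stimulated genes, named individually and matched by symbol to the authors' deposited table of 17219 genes. Of the 38, 37 had a row (Mx2 was not analysed here), 35 had a fold change between the organoid libraries and 37 had a fold change in a further comparison whose libraries the file headers call WTEpi and F4KOEpi. The list was drawn up with earlier results of these same data known, and the fold changes of both comparisons were among those results, so the values below are a description of the members and carry no test of the list.

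The study compared mouse intestinal organoids, cultures grown from crypts in Matrigel in which stem cells and differentiated epithelial cells develop together, harvested on day 6 of culture. The WT group carried floxed FABP4 alleles and no Cre. The F4KO group carried the same floxed alleles with a Cre transgene under the villin promoter, which is active in intestinal epithelium, so the floxed alleles were common to both. Each group was 1 library, the sources used here do not state the number of animals, and the genotype label of F4KO reads FABP4 knockdown where the design text has a knockout. The labels used here do not describe the Epi libraries, so these are called only by the names in the file headers. As every group was 1 library, replicates cannot check any of the differences. The deposited false discovery rate (FDR) compares 2 libraries and not 2 genotypes.

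Interferons are secreted proteins that signal through cell-surface receptors and Janus kinases to STAT transcription factors. A complex that holds STAT2 and IRF9 binds the interferon-stimulated response element in promoters and switches on a broad antiviral programme, and the gamma-activated site is the element of the interferon-gamma response. IRF7, itself an interferon-stimulated gene, drives further interferon production, and USP18 and the SOCS proteins damp the signal. In mouse intestine the epithelium responds mainly to interferon lambda, and a low standing expression of these genes without infection has been described.

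The deposited tables give a log2 fold change, a p-value and an FDR for each gene and no level per library. Read numbers were recovered from the p-values where a single pair of whole numbers fitted, which was the case for 27 of 35 members in organoids and 19 of 37 in Epi. Genes whose libraries are nearly equal have p-values that many pairs fit, so the recovered members leave out some of the smallest differences. Total depth is unknown. F4KO had 0.992 times the reads of WT in organoids and 0.813 times in Epi, summed over the library, and ratios of reads below are scaled by these figures. The 95% intervals given with them (Clopper-Pearson, exact) describe errors of counting and nothing else. A gene counted as higher or lower by the size rule when its deposited fold change was at least 1.5 (0.58 on the log2 scale) with a deposited FDR of 0.001 or less.

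Fabp4 had 1 and 0 reads in WT and F4KO organoids and 1 and 4 in WTEpi and F4KOEpi, too few reads to check the genotype or the sign of the folds, and that sign was read from the order of names in the file headers. All 4 Y-linked genes examined were higher in F4KO organoids, with 1 read in WT and 879 in F4KO for Eif2s3y, and 0 of the 4 passed the size rule in Epi. Sex-linked differences and those of genotype between the organoid libraries cannot be told apart.

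The interferon-stimulated response element was looked for in the promoters of the members, in RefSeq windows of 250 bases before and 50 bases after the start (GRCm38.p6), which were on hand for 29 of the 38. The core, GAAA followed by 2 free bases and GAAA, read on both strands, stood in at least 1 window of 16 of these 29 genes (55.2%), against 3.99% of all 27025 genes with a window. The gamma-activated site, TTC followed by 3 free bases and GAA, also read on both strands, stood in 6 of 29 (20.7%), against 9.55% of all genes. Both motifs are short, can overlap each other, and a match is a description of letters and not a binding site. Stretches upstream of 6 genes are shown because the results below turn on these genes or their families, each written 5′ to 3′ on the strand of its gene with the core in capitals. On the opposite strand the core reads TTTC, 2 free bases and TTTC.
Isg15 (chr4:156200861-156200910, minus strand): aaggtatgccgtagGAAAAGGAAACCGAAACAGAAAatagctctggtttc
Ifit1 (chr19:34640771-34640827, plus strand): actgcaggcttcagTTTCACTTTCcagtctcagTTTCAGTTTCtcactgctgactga
Oas3 (chr5:120777711-120777748, minus strand): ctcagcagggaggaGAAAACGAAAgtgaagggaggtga
Ddx60 (chr8:61928020-61928057, plus strand): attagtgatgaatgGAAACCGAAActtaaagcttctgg
Bst2 (chr8:71537573-71537616, minus strand): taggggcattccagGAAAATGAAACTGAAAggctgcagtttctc
Gbp2 (chr3:142620590-142620627, plus strand): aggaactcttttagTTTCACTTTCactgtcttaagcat
Isg15 held 3 overlapping cores, the last ending 57 bases before the start. Ifit1 held 2 cores side by side and Bst2 held 2 that overlap. Of the 7 members lower in F4KO organoids by the size rule, 4 had a window and 1 of these, Ddx60, held the core. The windows of Irf7, Irf9 and Samd9l did not hold these letters.

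Most of the interferon-stimulated genes had lower values in the F4KO organoid library than in WT. By the size rule 7 of the 35 members with a fold change were lower (Irf7, Irf9, Dhx58, Ddx60, Samd9l, Rtp4 and Ifi27) and 0 were higher, where 0.953% of all 15845 genes with a fold change were lower and 0.278% higher. The contrast was among the values known when the members were chosen, so this difference from the background is not evidence about them. The median deposited log2 fold change of the 35 members was -0.74, with quartiles of -1.30 and -0.30, beside a median of 0.00 over all genes with quartiles of -0.24 and 0.15. By sign alone 30 members were below 0 and 5 above, and 20 were at least 1.5-fold lower at any FDR, where 12.4% of all genes were. The 27 members with recovered reads had 4115 WT reads and 2507 F4KO reads, a scaled ratio of 0.614. The 8 others include 4 of the 5 members above 0, so no share of lower members is read from the 27.

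Most of the recovered members were sparsely read in organoids, which limits what the comparison can show. For Oasl1 and Ifih1, not recovered, many pairs fitted, with lowest totals of 1551 and 4244 reads over both libraries. The true pair need not be among those that fitted, so the read numbers of Oasl1 and Ifih1 are not known. Among the 27, the WT library had between 1 and 793 reads per gene with a median of 55, and the F4KO library between 0 and 640 with a median of 18. The interval of the ratio lay wholly below 1 for 17 of them, covered 1 for 10 and lay above 1 for 0. The 27 leave out most members with a fold change above 0, and the like share of all genes was not computed. These counts are therefore not read as a result about the members. Of the 35 members, 8 had a fitting pair of fewer than 20 reads over both libraries. The plot of organoid reads shows the members fanned out below the line of equal share, from genes with a handful of reads to those with the most reads.

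**Figure D1:**
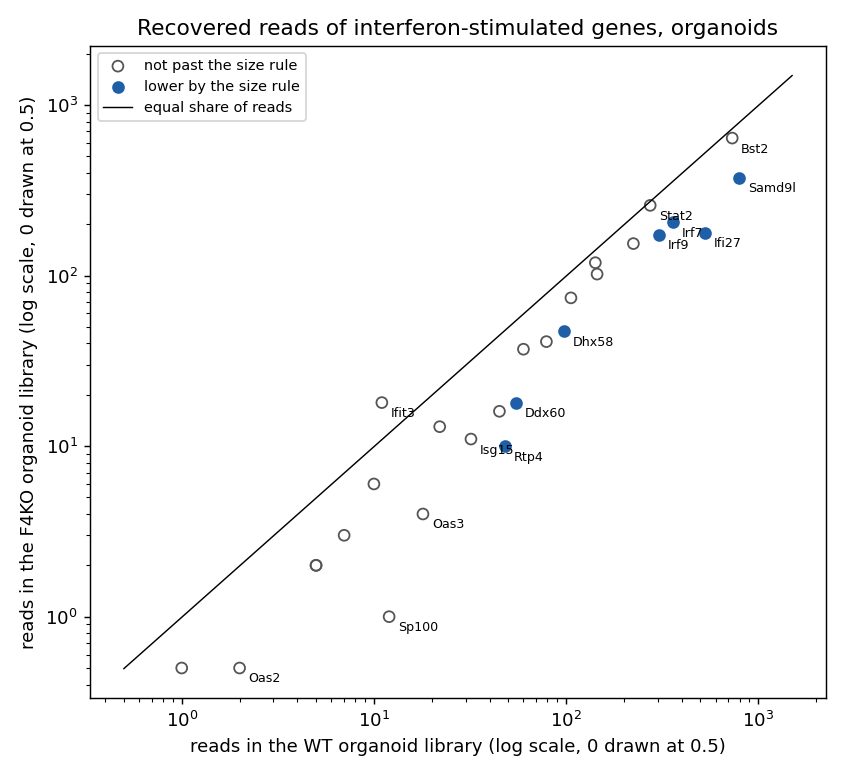
Reads of 27 interferon-stimulated genes recovered from the deposited p-values, WT organoid library on the x axis and F4KO organoid library on the y axis, both logarithmic with 0 drawn at 0.5; the line marks equal shares of the read totals. Filled points are the 7 genes lower by the size rule, and 26 of the 27 points lie below the line, with members near equality missing more often because their reads could not be recovered.

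Among the transcription factors, both Irf7 and Irf9 were lower in F4KO organoids and Stat2 and Irf1 were not past the rule. Irf7, the master regulator of interferon-alpha genes (gene ID 54123, chromosome 7, 141263183 to 141266499, GRCm38), had 358 WT reads and 205 F4KO reads. Its scaled ratio was 0.577, with an interval from 0.484 to 0.687, and its log2 fold change in the authors' deposited table was -0.80, at an FDR of 6.04e-09. Irf9, the DNA-binding partner of STAT2 (gene ID 16391, chromosome 14, 55603985 to 55610030), had 304 WT reads and 173 F4KO reads, a ratio of 0.574 with an interval from 0.473 to 0.694. For Irf9 the authors' deposited table gave -0.78 with an FDR of 8.56e-08. Stat2, which encodes that partner, had 274 and 258 reads, a ratio whose interval ran from 0.798 to 1.13. Irf1, a factor of the interferon-gamma response, was at 0.09 on the log2 scale (FDR 0.818, authors' deposited table). The difference between Irf9 and Stat2, whose proteins work in the same complex, was not tested.

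Of the 5 sensors of foreign nucleic acid, 2 were lower in F4KO organoids by the size rule, Dhx58 and Ddx60. Dhx58, which encodes LGP2, a regulator of the RNA helicases RIG-I and MDA5 (gene ID 80861, chromosome 11, 100694884 to 100704271), had 97 WT reads and 47 F4KO reads, a ratio of 0.488 with an interval from 0.337 to 0.699. The authors' deposited table gave Dhx58 -1.04 with an FDR of 4.80e-04. Ddx60, a helicase of the same response (gene ID 234311, chromosome 8, 61928073 to 62037704), had 55 and 18 reads, a ratio of 0.330 (0.182 to 0.571), and a deposited value of -1.64 (FDR 2.03e-04, authors' deposited table). Ddx58, which encodes RIG-I itself, had 145 and 102 reads with an interval from 0.545 to 0.920, and the FDR in the authors' deposited table, 0.0441, missed the limit. Ifih1, which encodes MDA5, was at 0.06 on the log2 scale (FDR 0.883, authors' deposited table). Zbp1, a sensor of Z-form nucleic acid, was at 0.34 (FDR 1.02, authors' deposited table), with fitting pairs of as few as 8 reads over both libraries.

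None of the IFIT and OAS genes passed the rule in organoids, although most had fewer reads in F4KO. IFIT proteins bind foreign RNA and block its translation. Ifit1 had 79 WT reads and 41 F4KO reads, a ratio of 0.523 with an interval from 0.350 to 0.772, and missed the limit (FDR 0.00556, authors' deposited table). Ifit2 had 22 and 13 reads, and Ifit3 had 11 and 18, the 1 member of the 35 at least 1.5-fold higher at any FDR (9.66% of all genes), with an interval from 0.738 to 3.86. Ifit3 has a close copy, Ifit3b, so its reads are uncertain. OAS enzymes make the 2-5A messenger that activates RNase L. Oas1a had 224 reads in WT and 154 in F4KO (0.561 to 0.855), Oasl2, an OAS-like gene, had 106 and 74 (0.516 to 0.956), and Oas3 had 18 and 4 (0.0551 to 0.680). Oas2 had 2 and 0 reads, too few for a ratio. Oasl1, an OAS-like repressor of Irf7 translation in mouse, was at 0.01 on the log2 scale (FDR 0.887, authors' deposited table).

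The ubiquitin-like modifier Isg15 and its partners were all below 0 in organoids, none past the rule. Isg15 had 32 WT reads and 11 F4KO reads, a ratio of 0.347 with an interval from 0.158 to 0.705, and missed the limit (FDR 0.0114, authors' deposited table). Usp18, the protease that removes ISG15, had 5 and 2 reads. Trim25, a ubiquitin ligase that acts on RIG-I, was at -0.34 (FDR 2.28e-04, authors' deposited table), past the FDR but short of the fold. On the FDR alone, at any fold, 8 members were lower and 0 higher in organoids, beside 4.70% and 3.09% of all genes. The ADP-ribosyltransferase Parp14 had 60 and 37 reads (0.401 to 0.952), and Dtx3l, a ubiquitin ligase that pairs with PARP9, had 142 and 119 (0.657 to 1.09). Parp9 was at -0.39 (FDR 0.0329, authors' deposited table). Parp9 and Dtx3l overlap on chromosome 16 (35938470 to 35972621 and 35926515 to 35939027), so reads in the shared part cannot be placed with certainty. The giant ubiquitin ligase Rnf213 was at -0.21 (FDR 0.220, authors' deposited table).

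Of the 9 remaining effectors 3 passed the rule, and all 9 were below 0. Samd9l, a restriction factor and tumour suppressor (gene ID 209086, chromosome 6, 3372257 to 3399571), had 793 WT reads and 375 F4KO reads, a ratio of 0.477 with an interval from 0.420 to 0.540. The authors' deposited table gave Samd9l -1.07 with an FDR of 3.58e-32. Ifi27, an interferon-induced membrane protein (gene ID 52668, chromosome 12, 103434189 to 103440245), had 528 and 178 reads, a ratio of 0.340 (0.285 to 0.404), and a deposited value of -1.58 (FDR 2.39e-38, authors' deposited table). Rtp4, a receptor transporter protein that is also an antiviral factor (gene ID 67775, chromosome 16, 23520219 to 23614222), had 48 and 10 reads, a ratio of 0.210 (0.0947 to 0.420), and a deposited value of -2.33 (FDR 7.23e-06, authors' deposited table).

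Several further effectors had fewer reads in F4KO without passing the rule. Xaf1, a pro-apoptotic protein, had 45 reads in WT and 16 in F4KO, with an interval from 0.189 to 0.646 (FDR 0.00224, authors' deposited table). Sp100, a nuclear body protein, had 12 and 1 reads, a ratio of 0.0840 with an interval from 0.00197 to 0.568. Ifi44 had 7 and 3 reads, and Rsad2, which encodes the radical enzyme viperin, had 10 and 6. Bst2, the tether that holds budding virus at the cell surface, had 732 reads in WT and 640 in F4KO (0.791 to 0.981), and did not pass. The RNA-activated kinase gene Eif2ak2 was at -0.47 (FDR 0.00324, authors' deposited table). Of the guanylate-binding proteins, GTPases that attack pathogen vacuoles, Gbp7 had 5 and 2 reads and Gbp3 had 1 and 0. Gbp2 and Trim30a, a TRIM protein with close copies, had no organoid fold change.

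**Figure D2:**
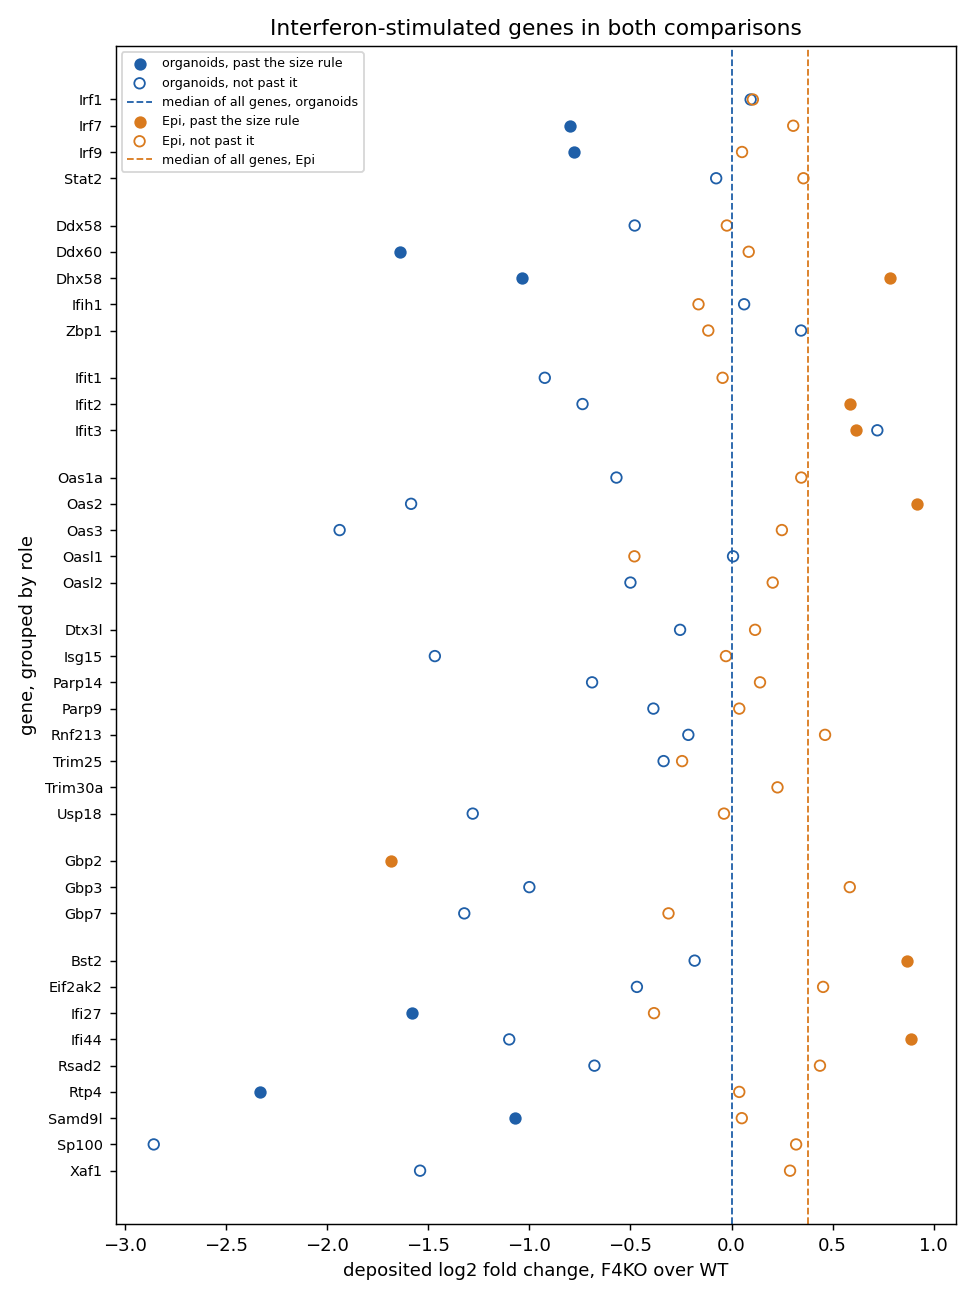
Deposited log2 fold change (F4KO over WT, x axis) of the 37 interferon-stimulated genes with a row, grouped by role on the y axis, in organoids (blue) and Epi (orange); filled points are past the size rule and dashed lines are the medians of all genes, 0.00 in organoids and 0.38 in Epi. Most blue points lie left of their line, and the orange points lie on both sides of 0; the organoid points of Oas2 and Gbp3 rest on 2 and 1 reads.

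In the Epi comparison most members had values above 0, and the sign of their median depended on how the libraries were scaled. The median deposited log2 fold change of the 37 members was 0.14, with quartiles of -0.03 and 0.44, 26 above 0 and 11 below. Over all 16336 genes with a fold change, however, the median was 0.38 with quartiles of -0.01 and 0.99, so that relative to this shift the members' median was -0.24 and 27 of the 37 lay below the median of all genes. By the size rule 6 members were higher and 1 was lower in F4KOEpi, where 20% of all genes were higher and 2.51% lower. With the fold changes centred on the median of all genes, a setting chosen after seeing the data, 0 members were higher and 4 lower, beside 11.6% and 6.89% of all genes. On the FDR alone, 19 members were higher and 6 lower, beside 30.6% and 7.92% of all genes.

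The shift between the Epi libraries was itself larger for genes with few reads. Among genes with a single listed transcript, the median log2 fold change was 0.67 for the 763 genes with 20 up to 100 reads over both libraries and 0.22 for the 853 genes with 1000 up to 4000. It was 0.05 for 347 genes with 4000 reads or more, a class that leaves out the most heavily read genes, whose reads were not searched for. Centred on the 1200 of these genes with at least 1000 reads, which had a median of 0.18, the members' median was -0.04, with 4 members higher and 2 lower by the size rule, beside 15.7% and 4.21% of all genes. The corresponding organoid medians ran from -0.08 to 0.03. Every member had at least 304 reads over both Epi libraries in any fitting pair.

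Of the 6 members higher in F4KOEpi, Oas2, Ifi44, Bst2 and Dhx58 lay above the upper quartile of genes with a like number of reads. From 1000 reads up, the upper quartile of such genes was below 0.58, so a member higher by the size rule lies above it. For Oas2, Ifi44, Bst2 and Dhx58 the selection therefore fixed the result. Oas2 had 1417 reads in WTEpi and 2167 in F4KOEpi, a scaled ratio of 1.88 with an interval from 1.76 to 2.01. Ifi44 had 1314 and 1972 (1.72 to 1.98), Bst2 had 881 and 1308 (1.68 to 1.99), and Dhx58 had 615 and 860 (1.55 to 1.91). Their log2 fold changes in the authors' deposited table were 0.92, 0.89, 0.87 and 0.78, where the quartiles of genes with 1000 up to 4000 reads were -0.06 and 0.49. Ifit2, with 299 and 367 reads and a value of 0.58 in the authors' deposited table, lay inside the quartiles of 0.14 and 0.78 of genes with 400 up to 1000 reads. Ifit3 was at 0.62 (FDR 5.44e-19, authors' deposited table), and its Epi reads were not recovered. The pairs that fitted had at least 1848 reads, but the true pair need not be among them. Ifit3 was therefore not placed in a read class.

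Gbp2 was the 1 member lower in F4KOEpi by the rule, and Oasl1 had the next lowest value. Gbp2 (gene ID 14469, chromosome 3, 142620663 to 142638008) had 612 reads in WTEpi and 154 in F4KOEpi, a ratio of 0.310 with an interval from 0.258 to 0.370, and the authors' deposited table gave -1.69 with an FDR of 2.41e-45. Its neighbours on chromosome 3 had other values, with 546 and 357 reads for Gbp7 (0.702 to 0.921) and 137 and 167 for Gbp3 (1.19 to 1.89). These genes are related in sequence, so reads may be split among them with error. In the transcript table, 11 of the members' 104 Epi transcripts were lower and 24 higher by the size rule, beside 12.8% and 24.5% of all transcripts. The organoid counts there were 17 lower and 4 higher of 69, beside 14.4% and 13.3% of all transcripts. Oasl1 had 6694 and 3836 reads, a ratio of 0.705 (0.677 to 0.734). Ifi27, among the lowest in organoids, was at -0.38 (FDR 4.84e-04, authors' deposited table).

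For several well-known members the Epi libraries did not differ beyond counting error. Isg15 had 3311 reads in WTEpi and 2641 in F4KOEpi, with a ratio interval from 0.932 to 1.03, Ifit1 had 4312 and 3399 (0.927 to 1.01), Usp18 had 1779 and 1409 (0.908 to 1.05), and Ddx58 had 2656 and 2124 (0.929 to 1.04). All 4 intervals cover equality, and all 4 genes lay below the Epi median of all genes. Irf7 had 9735 and 9782 reads, a ratio of 1.24 (1.20 to 1.27), and Stat2 had 2390 and 2486, a ratio of 1.28 (1.21 to 1.35). Rnf213 had 9000 and 10088 reads (1.34 to 1.42) and Rsad2 had 1032 and 1135 (1.24 to 1.47). Dtx3l, with 3901 and 3438 reads (1.04 to 1.14), and Trim30a, with 1729 and 1645 (1.09 to 1.25), were nearer to equality. In the authors' deposited table the 4 organoid-lower members Irf9, Ddx60, Samd9l and Rtp4 were at 0.05, 0.09, 0.05 and 0.04, none with an FDR of 0.001 or less. The members not yet given for Epi had values in the authors' deposited table of 0.11 for Irf1, -0.16 for Ifih1, -0.11 for Zbp1, 0.34 for Oas1a, 0.25 for Oas3 and 0.20 for Oasl2. The same table (the authors' deposited table) had Parp9 at 0.04, Parp14 at 0.14, Trim25 at -0.24, Xaf1 at 0.29, Eif2ak2 at 0.45 and Sp100 at 0.32. Of these 12 genes, Eif2ak2 alone lay above the Epi median of all genes.

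**Figure D3:**
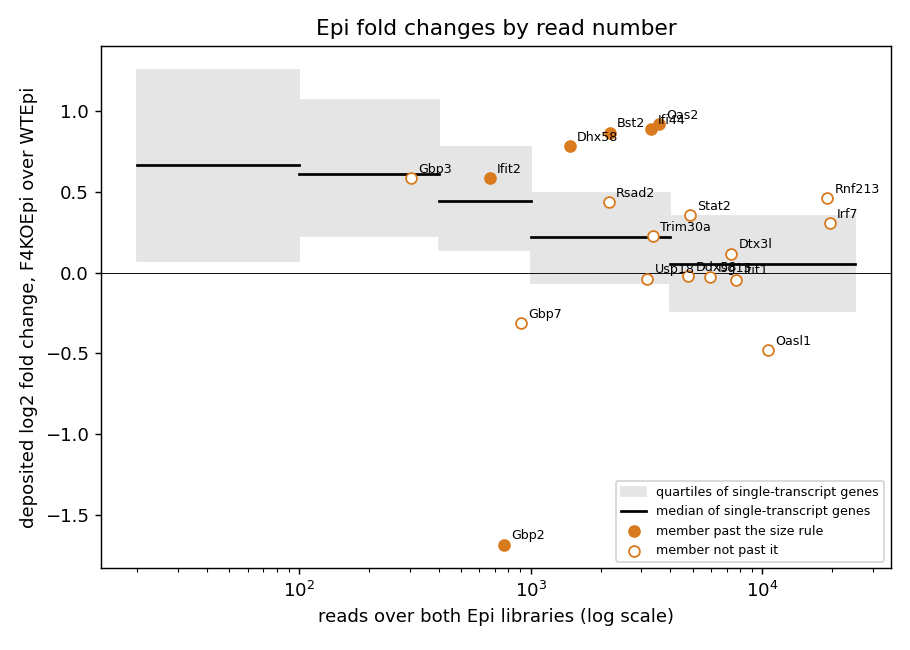
Deposited log2 fold change (F4KOEpi over WTEpi, y axis) of the 19 members with recovered reads against their reads over both Epi libraries (x axis, logarithmic); grey boxes and black lines are the quartiles and medians of genes with a single listed transcript in 5 read classes. Oas2, Ifi44, Bst2, Dhx58, Rnf213 and Stat2 lie above the boxes of their class, and Gbp2, Gbp7 and Oasl1 lie below theirs. The last box leaves out the most heavily read genes, and Rnf213 and Oasl1 had more WTEpi reads than any gene in it. Some members, unlike the boxed genes, have several listed transcripts.

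Set side by side, the comparisons gave 23 members below 0 in organoids and above 0 in Epi. A further 7 were below 0 in both, 2 above 0 in both, and 3 above 0 in organoids and below 0 in Epi. Over all genes the Epi median was 0.38 and the lower quartile -0.01, so most genes lay above 0 in Epi. The shares of all genes in these sign classes were not computed, so the 23 is not read as a trait of the members. Only Dhx58 passed the size rule in both, lower in organoids at -1.04 and higher in Epi at 0.78 in the authors' deposited table. Dhx58 no longer passed in Epi when centred on the median of all genes, and still passed when centred on that of well-read genes. Whether the difference between the comparisons exceeds the variation between cultures or preparations could not be tested with 1 library per group.

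The members were read far more often in the WTEpi library than in the WT organoid library. Reads could be set against each other for 15 members, and the ratio of WTEpi to WT organoid reads ran from 1.20 for Bst2 to 708.5 for Oas2, with a median of 54.6. Over 3696 genes with a single listed transcript and at least 1 read in each of the libraries, the median ratio was 0.671 and the 95th percentile 10.4, and 12 of the 15 members lay above that percentile. Isg15 had 32 reads in WT organoids and 3311 in WTEpi, Usp18 had 5 and 1779, Rsad2 had 10 and 1032, and Ifi44 had 7 and 1314. Stat2, at 274 and 2390, Dhx58, at 97 and 615, and Bst2, at 732 and 881, lay inside the range of other genes. In the F4KO libraries the ratio over 13 members ran from 2.04 to 704.5, with a median of 47.7. The ratio of Oas2 rests on 2 organoid reads. None of these ratios is scaled for depth, and how the Epi libraries were prepared is not described in the labels used here. The 3696 genes were searched to a lower read limit than the members, so the most heavily read genes are missing among them. Some of the 15 members have several listed transcripts, unlike the genes they are set against.

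**Figure D4:**
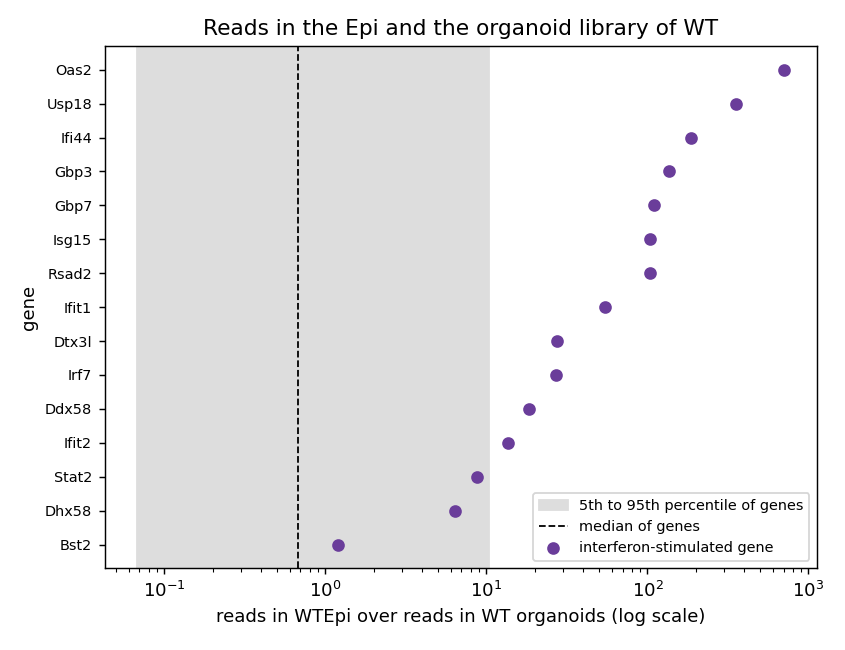
Reads in the WTEpi library divided by reads in the WT organoid library (x axis, logarithmic, not scaled for depth) for the 15 members with recovered reads in both (y axis); the grey band is the 5th to 95th percentile and the dashed line the median of 3696 genes. Members from Ifit2 up to Oas2 lie to the right of the band, and Stat2, Dhx58 and Bst2 lie within it.

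None of the genes listed upstream of the members passed the size rule in organoids, where 0.953% of all genes were lower and 0.278% higher. With shares that small, lists this short would mostly hold none, so the counts of 0 are not a result about these genes. Of 21 interferon genes listed, 4 had a row, 0 had an organoid fold change, and in Epi Ifng had 4 and 3 reads and Ifnl3 had 0 and 2. All 9 receptor and kinase genes had a fold change and 0 passed the size rule in either comparison, with a median of 0.08 in organoids and -0.11 in Epi. Ifnar1, a chain of the receptor for interferon alpha and beta, had 551 reads in WT organoids and 589 in F4KO, and Ifnlr1, the specific chain of the interferon lambda receptor, had 157 and 164. Of 11 further transcription factors 0 passed in organoids. Of the same 11, 1 was lower in Epi, the class II transactivator gene Ciita, with 689 reads in WTEpi and 276 in F4KOEpi. In Epi 2.51% of all genes were lower and 20% higher.

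Further sensing genes and inhibitors of the response are given by the same rule. Of 13 sensing and adaptor genes outside the members, 0 of 12 with a fold change passed in organoids and 4 of 13 were higher in Epi. The 3 with the largest values were Sting1, the adaptor for cyclic dinucleotides (30 and 61 reads), the RNA receptor gene Tlr7 (94 and 180 reads) and the DNA sensor gene Aim2 (97 and 157 reads), each pair given as WTEpi and F4KOEpi. Of 9 negative regulators 0 passed in organoids, where 0.953% of all genes were lower and 0.278% higher. In Epi 2 were higher, Socs1 with 277 and 561 reads and Socs3 with 1926 and 3749, and 1 was lower, the dNTP hydrolase gene Samhd1 with 4558 and 2232 reads. These Epi counts are of fold changes as deposited, where 20% of all genes were higher and 2.51% lower, and the difference between the comparisons was not tested.

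A wider list of 74 other interferon-stimulated genes, 69 of them with a row, had a median of -0.18 in organoids over 64 genes, with 1 lower and 0 higher by the size rule, beside 0.953% and 0.278% of all genes. The 1 lower gene was Slfn9, of the Schlafen family, with 791 WT reads and 523 F4KO reads, a ratio of 0.667 with an interval from 0.596 to 0.745. In Epi the median of the 69 genes was 0.28, below the median of all genes, with 12 higher and 4 lower, beside 20% and 2.51% of all genes. The 3 with the largest values were Ifitm3, which blocks virus entry and had 212 and 596 reads, Slfn9 with 168 and 405, and Slfn5 with 538 and 1292. The difference in size between this list and the members was not tested.

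The lymphocyte markers whose reads were recovered were close to absent from the organoid libraries. Of 13 T cell and intraepithelial lymphocyte markers 5 had an organoid fold change, 0 passed, and the 3 with recovered reads had 4 reads in WT and 1 in F4KO together. Cd3e and Cd3d had 1 read in WT and 0 in F4KO each, and Ptprc, the pan-leukocyte marker, had no organoid fold change. The myeloid genes Siglech and Lyz2 had 2 and 6 reads in WT and 0 in F4KO, and Cd68, which other cells also express, had 165 and 104. Of the 8 myeloid and plasmacytoid dendritic cell markers, which include Bst2, 7 had a fold change and 0 passed, with 907 reads in WT and 746 in F4KO over the 6 recovered. By the same rule 0.953% of all genes were lower and 0.278% higher in organoids. The part of lymphocytes and myeloid cells in the members' lower organoid values was not tested. Epithelial markers were abundant, with 13026 and 13369 reads for Epcam and 5950 and 6400 for Vil1. In bulk RNA, fewer responding cells and less RNA per cell cannot be told apart.

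In the Epi libraries the lymphocyte markers were well read, with 4979 reads in WTEpi and 4092 in F4KOEpi over the 4 recovered, among them Gzma with 2561 and 2284. Of 9 with a fold change, 1 passed, Cd8b1, lower with 123 and 51 reads. The 5 fibroblast markers had 21 and 106 reads in all, 3 of them higher by the rule, and Jchain, of antibody-secreting cells, had 83 and 182. Over all genes 20% were higher and 2.51% lower in Epi by the rule. The part of lymphocytes, fibroblasts and antibody-secreting cells in the members' values was not tested.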

How the data were processed

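Per the labels' protocols, RNA-seq libraries were made from organoids harvested on day 6. The authors deposited, for each comparison of 1 library with 1 library, a log2 fold change, a p-value from a test named after the Poisson distribution and an FDR computed from it, per the file headers. The deposited FDR of the organoids is a score without a limit at 1, and 767 genes exceed it. The submitters' processing notes name GRCm38 and mm10; no source used here gives the aligner, the quantifier or the annotation (not stated). Fold changes are relative to library normalization by the authors that the headers do not describe.

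Reads were recovered as the whole numbers that, under a two-sided Audic-Claverie test, give the deposited p-value to its 6 digits and lie near the deposited fold change (within 0.4 on the log2 scale, or 0.005 for well-read genes with a single listed transcript), searching up to 20000 WT reads. The single-transcript genes used as background were searched to a lower limit of WT reads. The ratio of read totals was found by fitting the same p-values. A pair was used where it alone fitted and, for genes with several transcripts, had at most 400 reads or a p-value under 1e-06. P-values were also shifted slightly, so that only false matches remain. Over the genes of all lists, 0% to 7.08% of the shifted searches still gave a pair. The highest share was for Epi genes with several transcripts, where 36.3% of genes gave a pair without the shift. Among the members, Irf7, Ifit2, Oas2, Oasl1, Ifi44, Gbp3 and Rnf213 have Epi pairs of this kind. Some of these pairs may be false, and their intervals do not allow for that. On simulated data with a total ratio of 0.9, 91 of 120 genes gave a pair and 91 of those were right. In the deposited data, genes with several transcripts gave a pair in 42.2% of cases in organoids and 36.3% in Epi. The true reads of these genes are unknown, so the share of right pairs among them was not tested.

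Members and lists were chosen with earlier results of these data known. Every member is named; from each other list at most 3 genes with the largest fold past the size rule are named per comparison, with those past it in both. Any further gene of these lists was chosen with its values in view. The design assumed no test, and none of genotype was made. Symbols and coordinates come from RefSeq (GRCm38.p6), promoters likewise. Analyses used Python 3.11.15, NumPy 2.4.6, SciPy 1.17.1 and pandas 2.3.3. The values of 1 gene among the transcription factors outside the members are not reported here.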

Additional observations from a re-analysis of the deposited data

Results flagged for a closer look

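Dhx58 passed the size rule in both comparisons with opposite signs, at -1.04 in organoids and 0.78 in Epi in the authors' deposited table. Slfn9, outside the members, did the same, at -0.59 in organoids and 1.57 in Epi in the authors' deposited table. The difference between the comparisons was not tested for either gene.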

How the results depend on the processing

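No paired analysis was possible because each group had 1 library, and no library could be left out. The members' median in organoids kept its sign, at -1.24 on the transcript table and -0.69 without families with close copies. It was -0.57 over members with at least 20 reads and -0.82 as a mean. The values given here on the transcript table took, for each gene, the transcript with the smallest p-value, a choice that favours large differences. The share of all genes under that choice was not computed, so these counts have no background. The count lower in organoids, 7, was 12 at an FDR of 0.05 or less, 20 at any FDR (12.4% of all genes) and 11 on the transcript table, and the count higher, 0, was 1 at any FDR and 2 on the transcript table. The Epi median, 0.14, reversed to -0.24 and -0.039 when centred on the median of all genes and on that of well-read genes, both added after seeing the data, and was 0.23 on the transcript table, 0.11 without families with close copies and 0.16 as a mean. The count higher in Epi, 6, was 19 at any fold, 0 at a fold of at least 2, 12 on the transcript table, 3 without families with close copies and 0 centred on all genes. The count lower in Epi, 1, was 6 at any fold, 5 on the transcript table, 0 without families with close copies, 4 centred on all genes and 2 centred on well-read genes. Low organoid read numbers limit every value below about 20 reads.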

Other observations

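Some GTPase genes known from the interferon-gamma response had low values in F4KOEpi, and are given after their values were seen, with no list or test behind them. Igtp, an immunity-related GTPase, had 6334 reads in WTEpi and 2444 in F4KOEpi, with an interval of the scaled ratio from 0.453 to 0.497. Gbp6 had 1545 and 683 reads and Gbp8 had 262 and 102, beside Gbp2 and Ciita. By the size rule 2.51% of all genes were lower in F4KOEpi. The class II gene H2-Aa, not a GTPase, had a log2 fold change of -1.35 (authors' deposited table). Other genes of the interferon-gamma response were above 0, with Cxcl10 at 0.83 and Socs1 at 1.32, both past the rule (authors' deposited table). Cxcl9 at 0.46 and Irf1 at 0.11 were above 0 without passing it (authors' deposited table). Other GTPases did not pass the size rule, with log2 fold changes in the authors' deposited table of -0.32 for Irgm2, -0.47 for Iigp1, -0.36 for Tgtp1, -0.20 for Tgtp2, -0.14 for Gbp5 and -0.20 for Gbp4. Irgm1 at 0.13, Gbp9 at 0.16 and Gbp3 at 0.58 had the opposite sign (authors' deposited table). The organoid reads of Igtp were 41 in WT and 25 in F4KO, and those of Gbp6 were 0 and 4, so a difference of that size was not detectable at this depth for Gbp6.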
